A study of Mus musculus with 4 samples.

Results

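To describe what a short osteogenic induction does to the transcriptome of mesenchymal stem cells (MSCs), the poly(A) RNA of C3H10T1/2 cells was compared before and after 3 days of osteoblast (OB) induction in the presence of a control siRNA. The comparison took every gene with a mean of at least 1 CPM (read counts rescaled so that libraries can be compared) over the 4 libraries of the series, which kept 13233 of the 54532 annotated genes. C3H10T1/2 is an established line derived from C3H mouse embryos that can be driven towards bone, cartilage, fat or muscle. In the control group the cells were transfected with a control siRNA for 48 h and left uninduced, and in the OB group they received the same siRNA and were then kept for 3 days in complete medium with 50 µM ascorbic acid, 10 mM glycerophosphate, 0.001 µM dexamethasone and 1% penicillin-streptomycin. The groups siDNMT1 and siDNMT1_OB differed from these by an siRNA against Dnmt1, and all 4 groups grew in Modified Eagle's Medium with 10% serum. Each group held 1 library of 1 cell line. The 3 additives and the antibiotic, and any difference in days of culture or cell density, therefore changed together between control and OB and cannot be told apart.

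Ascorbic acid is the cofactor of the prolyl and lysyl hydroxylases that stabilise collagen and of other dioxygenases, glycerophosphate is a phosphate donor for mineral once alkaline phosphatase has split it, and dexamethasone is a synthetic agonist of the glucocorticoid receptor. In osteogenic cultures proliferation usually gives way to a phase of matrix production, and mineral forms only later. Dexamethasone is also a standard component of adipogenic and chondrogenic media.

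The control library held 27367792 counts and the OB library 22296046, against 25608719 in siDNMT1 and 26912489 in siDNMT1_OB. The tested genes took at least 99.7% of every library, and 3 counts, used as the floor, equalled 0.111 CPM in control and 0.133 CPM in OB. A gene is called (higher or lower) where 2 conditions held: a log2 fold change of 1 or more in size, and a Benjamini-Hochberg adjusted p under 0.05 from a two-sided exact binomial test on the reads of the library pair. With 1 library on each side this test compares libraries, not conditions, and the 95% intervals given here cover counting error only. A bare number in parentheses after a gene is its log2 fold change of OB against control. Dnmt1, the maintenance DNA methyltransferase, had 7195 counts in control and 1931 in OB, and 3375 in siDNMT1 and 2492 in the library labelled siDNMT1_OB. The last of these was not below the OB count, and this has to be kept in mind wherever the DNMT1-siRNA pair (the library labelled siDNMT1_OB against siDNMT1) is set beside the control-siRNA pair.

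Markers of the stated cell type were present in both libraries. Of 12 mesenchymal stromal markers 11 were tested and 1 was called: Pdgfra, the PDGF receptor alpha, which had 3459 counts in control and 15936 in OB and rose by 2.47 (95% interval 2.41 to 2.52) on the log2 scale. The summed level of these markers was 7829 CPM in control and 9007 CPM in OB. All 8 epithelial, all 8 lymphocyte and all 8 skeletal muscle markers were below the expression filter. Of 10 macrophage markers Cd68 and Cd14 were tested and not called (summed level 11.9 CPM in control and 10.1 in OB), and Ptprc had 2 and 2 counts. Of 8 endothelial markers Tek and Erg were tested (3.02 CPM in control and 3.27 in OB), with Erg lower at 31 and 11 counts, and Pecam1 had 8 and 4. Of 8 neuronal markers 5 were below the filter, among them Snap25 at 0 in both libraries, and the other 3 were called: Map2 was higher with 2517 counts in control and 6058 in OB, and Tubb3 (217 and 44) and Stmn2 (787 and 268) were lower. The part of other cell types in the results was not tested. In bulk RNA fewer cells of a kind and less RNA per cell cannot be told apart.

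Overall 1404 genes (10.6% of those tested) were higher in OB and 940 (7.1%) were lower, or 17.7% in either direction, and the median log2 fold change of all tested genes was 0.008. The higher genes reached further. There were 425 genes at a log2 fold change of at least 2 and 252 at one of at most -2, 74 genes at 4 or more and 8 at -4 or less, and 41 genes at 5 or more and 1 at -5 or less. The called higher genes together took 32877 CPM in control and 107990 CPM in OB, and the called lower genes 85664 CPM in control and 29856 CPM in OB. In the DNMT1-siRNA pair 903 genes (6.82%) were higher and 358 (2.71%) were lower, or 9.53% in either direction.

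**Figure D1:**
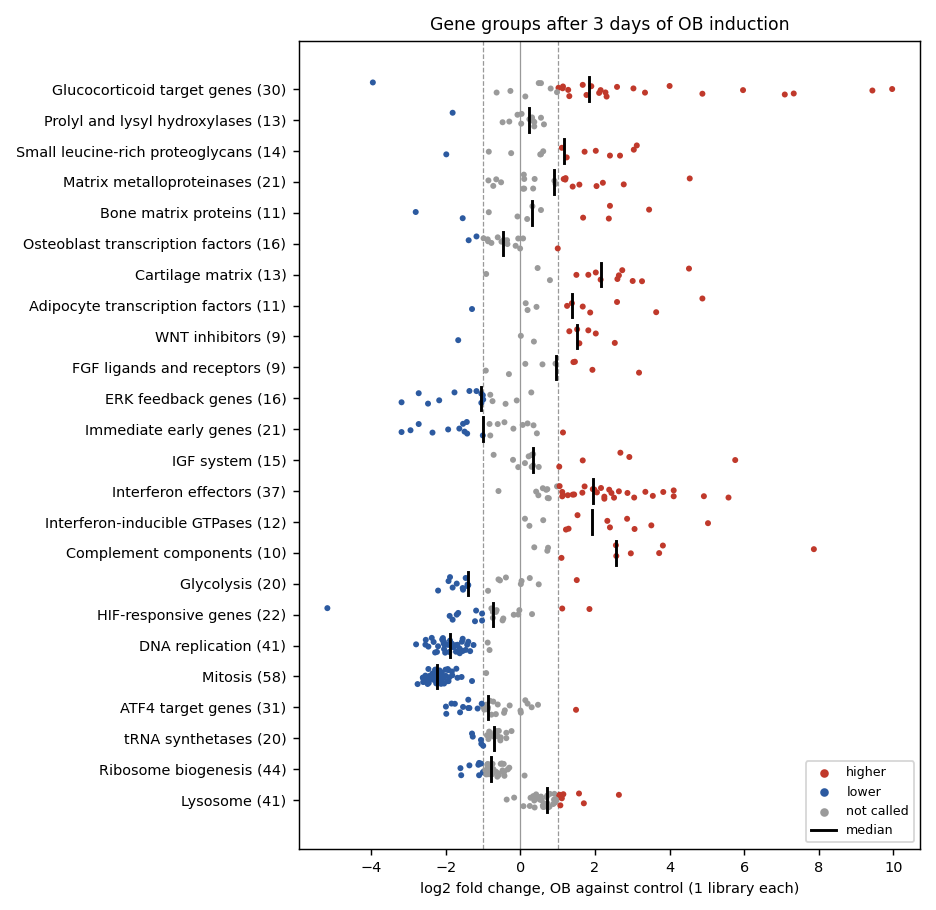
Log2 fold change of OB against control (horizontal axis) for the tested members of 24 gene groups (rows, number of members in brackets), with 1 point per gene, a black bar at the group median and dashed lines at the size threshold of 1. The medians run from -2.25 for mitosis to 2.56 for complement components, and nearly all genes of DNA replication and mitosis lie left of -1.

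The list of known glucocorticoid receptor targets was chosen with earlier results of these data known, so its counts describe the members and test nothing. It held the 2 genes with the largest log2 fold changes among protein-coding genes, Zbtb16 and Fam107a. Of 30 tested members 22 were higher and 1 was lower (76.7% called, against 17.7% of all tested genes). The median log2 fold change was 1.84, and the same list had a median of 1.86 in the DNMT1-siRNA pair. Zbtb16 (chr9:48654297-48836222 on GRCm38, minus strand), a BTB zinc finger transcription factor induced by glucocorticoids in many mesenchymal cells, had 0 counts in control and 1780 in OB, which is at least 711.6-fold higher against the floor of 3 counts. Hif3a, a HIF alpha subunit, likewise went from 0 counts to 240, at least 95.95-fold. Fam107a (chr14:8296274-8318023, minus strand), an actin-associated protein, had 6 counts in control and 4720 in OB, a log2 fold change of 9.45 (95% interval 8.76 to 11.33). Sult1a1, a phenol sulfotransferase, had 5 counts in control and 957 in OB (7.33), and Slc10a6, a transporter of sulfated steroids, had 1 count in control and 161 in OB, a ratio of 193 (95% interval 34.2 to 7674). Fkbp5, the co-chaperone that restrains the receptor, had 1233 counts in control and 8405 in OB and rose by 3.03 (95% interval 2.94 to 3.12) on the log2 scale. Tsc22d3, the leucine zipper protein GILZ, had 744 counts in control and 9970 in OB (4.0, 95% interval 3.90 to 4.12). Per1, a clock repressor with a well known receptor site, had 898 counts in control and 3637 in OB (2.28), Glul, glutamine synthetase, had 737 counts in control and 6226 in OB (3.34), and Klf15 had 9 counts in control and 271 in OB (4.88).

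The metallothioneins, small metal-binding proteins induced by metals and by glucocorticoids, both rose, Mt1 from 2027 to 4196 counts (1.31) and Mt2 from 58 to 221 (2.15). Not every listed target followed. Il1rl1, the receptor of interleukin 33, went against the list with 3283 counts in control and 174 in OB and fell by 3.96 on the log2 scale. Sgk1, a kinase widely used as a receptor target, had 4191 counts in control and 4909 in OB and was not called (0.49), nor was Dusp1 (0.55). Among the receptor and the enzymes that handle the hormone, Nr3c1, the receptor itself, had 3016 counts in control and 1918 in OB (-0.39, not called), and Fkbp4, the co-chaperone exchanged for Fkbp5, fell by 1.2 on the log2 scale with 4870 counts in control and 1771 in OB. The activating enzyme gene Hsd11b1 was below the expression filter at 7 and 31 counts.

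**Figure D2:**
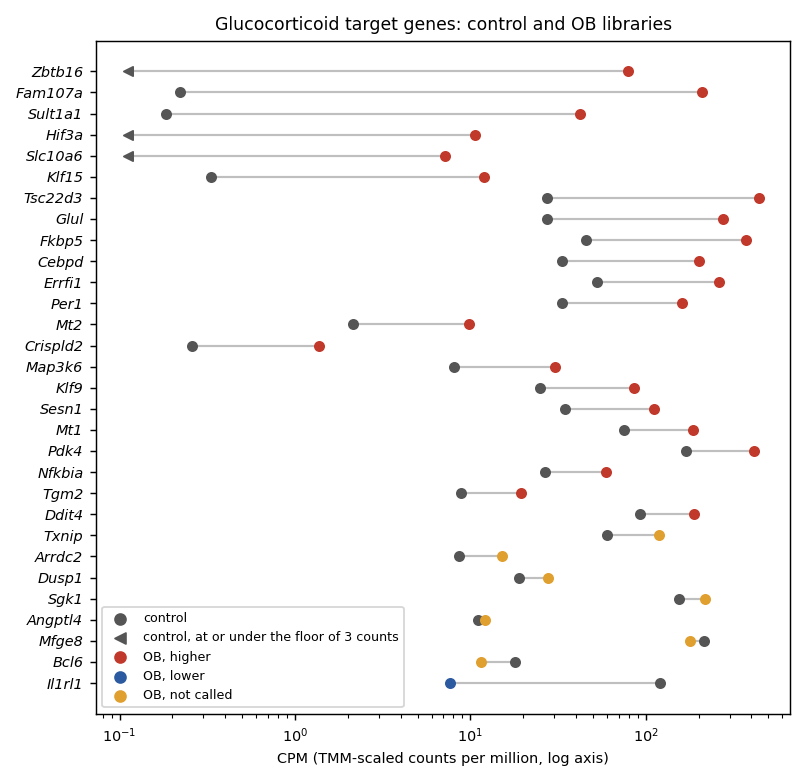
Level of each tested glucocorticoid target gene in the control and OB libraries, in CPM on a log axis, with genes ordered by log2 fold change and 1 library per point. Zbtb16, Hif3a and Slc10a6 are drawn at the control floor of 0.111 CPM, and Il1rl1 at the bottom is the member that fell.

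The promoters of the target genes were read for the letters of the receptor's palindromic element, since several of the steepest genes belong to this list. Promoter sequences are from RefSeq on GRCm38.p6 and span 250 bases before to 50 bases after the annotated start, and a promoter was matched by symbol for 9590 of the tested genes. The motif GNACANNNTGTNC, searched on both strands and palindromic in its fixed letters, occurred in 6 of the 26 target genes with a promoter (23.1%), in 9 of 949 promoters of higher genes (0.948%) and in 145 of all 27025 promoters in the table (0.537%). The 6 genes were Fam107a, Map3k6, Mt1, Sgk1, Slc10a6 and Txnip, of which Sgk1 and Txnip were not called. The stretches around 4 of the matches are shown because these genes rose, with the receptor motif in capitals and, for Mt1, also the metal response element TGCACNC (searched on both strands, present in 14.2% of all promoters).
Fam107a, chr14:8309860-8309922, minus strand: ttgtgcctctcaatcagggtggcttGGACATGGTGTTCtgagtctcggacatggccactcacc
Slc10a6, chr5:103629529-103629591, minus strand: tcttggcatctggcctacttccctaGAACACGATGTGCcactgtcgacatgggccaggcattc
Map3k6, chr4:133240612-133240674, plus strand: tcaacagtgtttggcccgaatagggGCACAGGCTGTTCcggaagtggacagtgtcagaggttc
Mt1, chr8:94178970-94179088, plus strand: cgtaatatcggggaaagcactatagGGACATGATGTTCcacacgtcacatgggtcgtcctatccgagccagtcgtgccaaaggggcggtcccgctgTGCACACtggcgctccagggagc
Map3k6, a stress kinase, had 218 counts in control and 685 in OB (1.90) on the log2 scale. A match describes these letters in this window and no binding was measured.

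The enzymes that use ascorbic acid were described by role. Of 13 prolyl and lysyl hydroxylases of collagen none was higher and 1 was lower (7.69% called, against 17.7% of all tested genes), with a median log2 fold change of 0.24. The exception was P4ha1, the main catalytic subunit of prolyl 4-hydroxylase and a known hypoxia-responsive gene, which had 7619 counts in control and 1802 in OB and fell by 1.82 on the log2 scale. None of the 6 tested collagen chaperones and glycosyltransferases was called, and Serpinh1, the collagen chaperone HSP47, had 35310 counts in control and 18651 in OB (-0.66). Of the propeptide-processing genes, Pcolce2, an enhancer of procollagen C-proteinase, rose by 2.05 with 75 counts in control and 264 in OB, and Adamts2, the procollagen N-proteinase, rose by 1.04. Lox, the lysyl oxidase that cross-links collagen and elastin, had 49882 counts in control and 120256 in OB, a log2 fold change of 1.53 (95% interval 1.52 to 1.55), whereas Loxl1, Loxl3 and Loxl4 were not called, between -0.82 and 0.33. Of 8 ascorbate transporters and other dioxygenases 2 were higher and 1 was lower (37.5% called). Slc23a2, the transporter that brings ascorbate into most cells, had 1578 counts in control and 5599 in OB and rose by 2.09 (95% interval 2.01 to 2.17). Among the other dioxygenases, Tet1, which oxidises 5-methylcytosine, rose by 1.02, and Egln1, the oxygen sensor PHD2, fell by 1.19 on the log2 scale with 2245 counts in control and 817 in OB.

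The 10 genes with the largest rise in CPM together gained 25180 of the 153510 CPM gained by all tested genes that rose. Postn, Lox, Vcan, Col1a2, Col6a1, Fstl1, Ogn and Adamts1 encode matrix proteins, matrix enzymes or secreted glycoproteins, a grouping that was not tested. The others were the nuclear long noncoding RNA Malat1 and the actin-severing protein gene Gsn. Postn (chr3:54361109-54391037, plus strand), which encodes periostin, a matricellular protein of periosteum and ligament, had 14523 counts in control and 132244 in OB, a log2 fold change of 3.45 (95% interval 3.42 to 3.47). Vcan, the large proteoglycan versican, had 14679 counts in control and 84316 in OB (2.78). Malat1 had 52092 counts in control and 135099 in OB (1.64), and Gsn had 19419 counts in control and 49099 in OB (1.6). Col1a2 was in this set through its abundance and was not called, with 240940 counts in control and 250823 in OB and a log2 fold change of 0.32.

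Of 31 tested collagen genes 15 were higher and 1 was lower (51.6% called, against 17.7% of all tested genes), with a median of 0.96 (0.85 in the DNMT1-siRNA pair). The most abundant fibrillar chains were not called. Col1a1, the main chain of bone collagen, had 261547 counts in control and 205939 in OB, a log2 fold change of -0.08, and per length it stood at 1469 CPM per kb in control and 1388 in OB. On the same per-length scale Col1a2 stood at 715 CPM per kb in control and 893 in OB, and Col3a1 at 200.4 CPM per kb in control and 287 in OB. Col6a1 rose from 167 to 554 CPM per kb (1.73 on the log2 scale) and Col6a2 by 2.03. Col15a1, of the multiplexin group, had 255 counts in control and 1977 in OB (3.21), Col23a1, a transmembrane collagen, 9 counts in control and 113 in OB (3.63), and Col11a1, a minor fibrillar chain of cartilage, 1508 counts in control and 8380 in OB (2.73). Col8a1, a short-chain collagen of vessel walls and corneal membranes, was the collagen that fell, with 205 counts in control and 11 in OB (-3.76).

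Small leucine-rich proteoglycans bind collagen fibrils and growth factors. They rose in 8 of 14 tested members and fell in 1 (64.3% called, against 17.7% of all tested genes). Their median of 1.17 is moved by the expression filter and by the removal of overlapping genes (values in the closing section). Aspn had 3609 counts in control and 26257 in OB (3.12, 95% interval 3.08 to 3.18), Ogn, which encodes osteoglycin, had 6058 counts in control and 32065 in OB (2.67), Omd, osteomodulin, had 338 counts in control and 1498 in OB (2.40), and Ecm2 had 73 counts in control and 513 in OB (3.04). Prelp rose by 1.72 and Epyc by 2.02. Fmod, which encodes fibromodulin, fell from 35 to 6 counts (-1.99), and Dcn, decorin, was scarce at 183 counts in control and 84 in OB and not called.

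Adhesive and elastic-fibre glycoproteins were mixed, with 15 of 42 higher and 3 lower (42.9% called, against 17.7% of all tested genes). Besides Postn and Vcan, the tenascins Tnn (4 counts in control and 60 in OB, 3.60), Tnxb (2.88) and Tnc (1.49) rose, as did the laminin chains Lama3 (2.40) and Lama2 (2.01). Lama5 fell (-1.65), and so did Fbln5, an elastic fibre assembly protein, with 22232 counts in control and 5972 in OB (-1.63). Fn1, which encodes fibronectin, lost more CPM than any other gene, from 187183 to 99704 counts, but its log2 fold change of -0.65 did not reach the size threshold.

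Matrix proteases were higher in 9 of 21 tested members and lower in none (42.9% called, against 17.7% of all tested genes). Adamts15, a versican-cleaving protease, had 6 counts in control and 156 in OB (4.54, 95% interval 3.81 to 6.43), Mmp19 had 209 counts in control and 1198 in OB (2.77), and Adamts1, the most abundant of the group in CPM gained, had 15250 counts in control and 37931 in OB (1.58). Adamts4 (2.21), Adamts9 (2.04) and Mmp2 (1.21), a gelatinase, also rose. Of 9 inhibitors 1 was higher and 3 were lower (44.4%). Cst3, the cysteine protease inhibitor cystatin C, had 7549 counts in control and 23959 in OB (1.93), whereas Timp1, the tissue inhibitor of metalloproteinases, fell from 4866 to 1505 counts (-1.43). Genes with ADAM symbols were higher in 7 of 13 tested members and lower in none (53.8% called, against 17.7% of all tested genes). Whether these members act as proteases was not tested. Adam1a was among the 7, and its sequence sharing with another gene (defined in the processing section) was 100%.

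**Figure D3:**
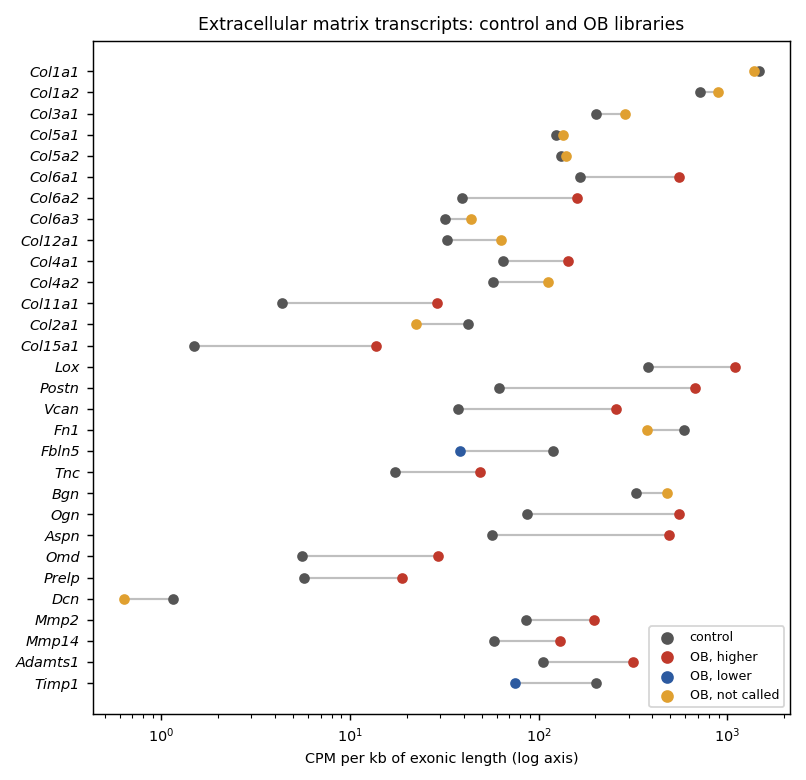
Levels of 30 matrix genes in the control and OB libraries, in CPM per kb of exonic length on a log axis, 1 library per point. Col1a1 stayed near its control level (1469 CPM per kb in control and 1388 in OB), while Postn went from 61.5 to 672 and Lox from 382 to 1106 CPM per kb.

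The transcripts that define bone-forming cells were at the floor or did not rise together. Of 16 tested osteoblast transcription factors 1 was higher and 2 were lower, with a median log2 fold change of -0.48 and 18.8% called, near the 17.7% of all tested genes. Runx2, the master factor of the lineage, had 2049 counts in control and 1644 in OB (-0.06, 95% interval -0.15 to 0.04), and Sp7, which acts after Runx2, was below the filter at 5 and 8 counts. Lef1, a WNT effector, fell by 1.39 and Runx1 by 1.18 on the log2 scale. The one factor called higher, Zfp521, lay at the threshold (1.00) and lost its call under another scaling. Alpl, the tissue-nonspecific alkaline phosphatase that releases phosphate from glycerophosphate, had 0 counts in control and 2 in OB, Bglap, osteocalcin, had 2 and 1, and Ibsp, bone sialoprotein, had 1 and 6. No fold is given for Alpl and Bglap because both libraries were under the floor.

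Of 11 tested bone matrix genes 4 were higher and 2 were lower (54.5% called, against 17.7% of all tested genes). Apart from Postn and Omd, these were Mgp, matrix Gla protein, an inhibitor of mineralisation, with 2016 counts in control and 8678 in OB (2.37, 95% interval 2.30 to 2.44), and Phex, the endopeptidase lost in X-linked hypophosphataemia, with 256 counts in control and 687 in OB (1.68). Spp1, which encodes osteopontin, fell from 14862 to 4226 counts (-1.55, 95% interval -1.60 to -1.50), while its log2 fold change was 0.40 in the DNMT1-siRNA pair. Dmp1, an osteocyte matrix protein, fell from 80 to 8 counts (-2.81). Among the enzymes and transporters of phosphate, Gdpd2 (chrX:100729873-100738895, plus strand), a glycerophosphodiester phosphodiesterase of osteoblasts that splits glycerophosphoinositol, had 25 counts in control and 6543 in OB, a log2 fold change of 8.18 (95% interval 7.73 to 8.92). Gdpd5 (1.36) and Gdpd1 (1.10), of the same enzyme family, rose too. Smpd3, a sphingomyelinase required for normal mineralisation, had 218 counts in control and 914 in OB (2.32). Slc20a1, a sodium-phosphate cotransporter, fell from 1601 to 627 counts (-1.09).

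Of 24 genes of cartilage matrix 11 were below the filter. Of the 13 tested 10 were higher and none was lower (76.9% called, against 17.7% of all tested genes), with a median of 2.15. Beside Col11a1, the genes that rose included Matn2, a matrilin, with 1918 counts in control and 9710 in OB (2.60), Matn4 with 44 counts in control and 367 in OB (3.26) and Comp, cartilage oligomeric matrix protein, with 27 counts in control and 150 in OB (2.64). Cnmd, chondromodulin, had 1 count in control and 58 in OB, a ratio of 69.6 (95% interval 12 to 2794), and Col9a2 had 2 and 26. Sox9, the master factor of chondrocytes, had 2549 counts in control and 4429 in OB (1.06, 95% interval 0.99 to 1.13), and its partners Sox5 and Sox6 were below the filter at 0 and 19 and at 1 and 21 counts. Of the main proteins of hyaline cartilage, Col2a1 had 10580 counts in control and 4675 in OB (-0.92, not called), and Acan, aggrecan, had no count in either library.

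Of 11 adipocyte transcription factors 7 were higher and 1 was lower (72.7% called, against 17.7% of all tested genes), with a median of 1.38. Klf15 is described above among the glucocorticoid targets. Cebpd, which opens the adipogenic cascade and responds to dexamethasone, had 902 counts in control and 4543 in OB (2.59), Cebpa had 78 counts in control and 242 in OB (1.87), and Nr1h3, the oxysterol receptor LXR alpha, had 4 counts in control and 62 in OB (3.64). Pparg, the master factor of adipocytes, had 918 counts in control and 1029 in OB and was not called (0.43), and Ebf2 fell by 1.30 on the log2 scale. Of 26 genes of lipid storage and secreted products 10 were below the filter. Of the 16 tested 5 were higher and none was lower (31.2% called). Apod, the lipocalin apolipoprotein D, had 28 counts in control and 1732 in OB (6.11, 95% interval 5.68 to 6.81), Fabp4, a fatty acid binding protein, had 111 counts in control and 963 in OB (3.35), and Plin4, a lipid droplet coat protein, had 969 counts in control and 4710 in OB (2.54). Apoe (2.55) and Lpl (2.27) rose as well. Adipoq, adiponectin, had 0 and 2 counts and Plin1 had none.

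**Figure D4:**
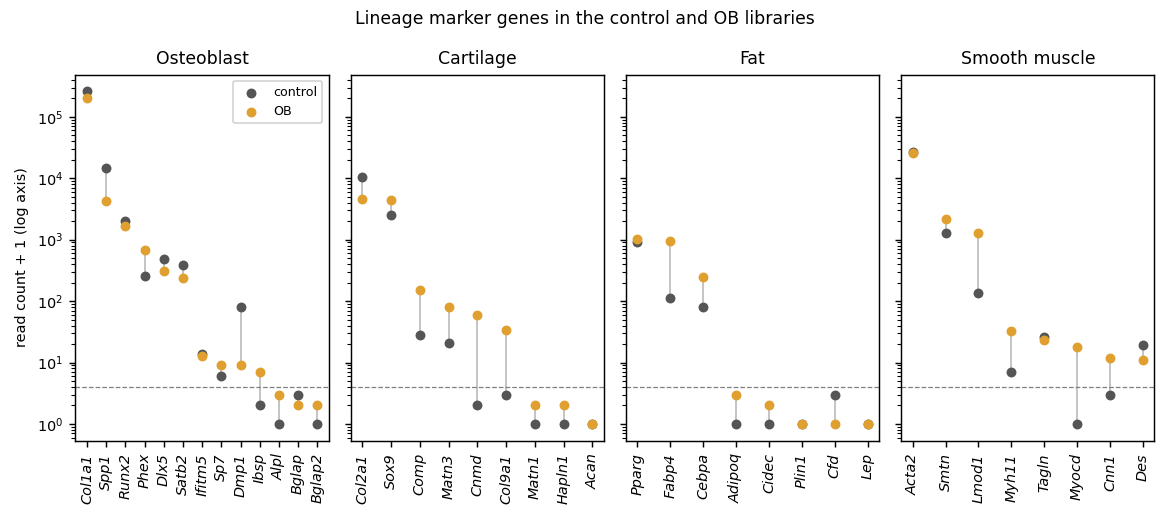
Read counts plus 1, on a log axis, of osteoblast, cartilage, fat and smooth muscle marker genes in the control (grey) and OB (yellow) libraries, with the dashed line at the floor of 3 counts. Alpl, Bglap, Acan, Adipoq and Plin1 lie at or below the floor in both libraries, while Phex, Comp, Fabp4 and Lmod1 stand above their control values.

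In smooth muscle and serum response factor genes 5 of 29 tested members were higher and 2 were lower (24.1% called, against 17.7% of all tested genes). Mylk, the myosin light chain kinase, had 135 counts in control and 1331 in OB (3.54, 95% interval 3.31 to 3.83), and Lmod1, leiomodin, had 134 counts in control and 1307 in OB (3.53). Acta2, the commonly used smooth muscle actin, was abundant in both libraries and not called (0.19). Zyx, a focal adhesion protein, fell from 21885 to 5461 counts (-1.74). The calcium channel gene Cacna1g, which encodes a T-type pore, had 68 counts in control and 1994 in OB (5.09, 95% interval 4.79 to 5.51). Myod1 had no count in either library.

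Transcripts of dividing cells fell nearly throughout. Of 41 genes of DNA replication 39 were lower and none was higher (95.1% called, against 17.7% of all tested genes, median -1.89). Of 58 genes of mitosis 57 were lower and none was higher (98.3% called, median -2.25). In the DNMT1-siRNA pair the medians were -0.74 and -1.11. Mcm5, a subunit of the replicative helicase, had 5095 counts in control and 608 in OB (-2.80, 95% interval -2.93 to -2.68), and Cdc6, which loads that helicase on origins, had 870 counts in control and 123 in OB (-2.54). Uhrf1, the partner that brings DNMT1 to hemimethylated DNA, fell by 2.29 and Dnmt1 by 1.63 (95% interval -1.71 to -1.56) on the log2 scale, both as members of the replication list. Orc6 and Rfc2 were the replication genes not called. Mki67, the proliferation antigen Ki-67, had 13598 counts in control and 1909 in OB (-2.57, 95% interval -2.64 to -2.50), Cdk1, the mitotic kinase, had 6008 counts in control and 1245 in OB (-2.01), and Ndc80, an outer kinetochore protein, had 1666 counts in control and 203 in OB (-2.76). The condensin gene Smc4 was the mitosis gene not called (-0.92).

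Of 16 cyclins, kinases and E2F factors 6 were lower and none was higher (37.5% called, against 17.7% of all tested genes). The lower ones were led by E2f2 with 203 counts in control and 16 in OB (-3.27), E2f8 (-2.59) and E2f7 (-2.38). Ccnd1, cyclin D1, had 10167 counts in control and 4324 in OB and missed the size threshold (-0.97), with 0.29 in the DNMT1-siRNA pair. Of 12 cycle inhibitors Cdkn2b, p15, rose by 1.04, and Rbl1, p107 (-1.47), and Cdkn2c, p18 (-1.10), fell. Cdkn1a, the p53 and glucocorticoid-responsive inhibitor p21, was level at 3865 counts in control and 3970 in OB (0.30, not called). Among families of the dividing cell, the 10 genes named after minichromosome maintenance held 8 that were lower, 14 of 21 centromere protein genes were lower, and 7 of 12 tubulin genes were lower, though the abundant tubulin genes share sequence (73.5% of the 50-base words of Tuba1b occur in another gene).

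Since almost all members of these lists moved one way, their promoters were read for known cell cycle letters. The cell cycle homology region TTTGAA occurred in 35 of 49 mitosis promoters (71.4%), against 25.5% of the promoters of all lower genes and 20.2% of all promoters in the table, and CCAAT also occurred in 35 of 49 (71.4%), against 52.4% and 41.1%. The E2F letters TTTCCCGC occurred in 6 of 34 replication promoters (17.6%), against 5.5% of the promoters of all lower genes, 2.38% of those of all tested genes and 1.24% of all in the table. The variant TTTGGCGC occurred in 8 of 34 (23.5%), against 2.75%, 1.11% and 0.585%. All were searched on both strands. The stretches shown are those of genes described here, with TTTGAA and CCAAT in capitals for Cdk1, Mki67 and Cdc20, TTTCCCGC for Cdc6 and TTTGGCGC for Mcm6, on whichever strand they lie.
Cdk1, chr10:69352913-69353145, minus strand: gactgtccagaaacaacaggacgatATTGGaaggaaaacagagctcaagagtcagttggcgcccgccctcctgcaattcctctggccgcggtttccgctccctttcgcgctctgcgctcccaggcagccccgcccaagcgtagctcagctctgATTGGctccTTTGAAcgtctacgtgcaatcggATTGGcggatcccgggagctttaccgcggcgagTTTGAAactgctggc
Mki67, chr7:135716447-135716592, minus strand: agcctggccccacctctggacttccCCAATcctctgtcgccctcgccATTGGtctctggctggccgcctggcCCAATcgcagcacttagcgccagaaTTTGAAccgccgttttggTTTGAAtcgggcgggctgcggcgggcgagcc
Cdc20, chr4:118437344-118437421, minus strand: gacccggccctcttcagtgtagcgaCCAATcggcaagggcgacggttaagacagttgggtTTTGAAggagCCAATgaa
Cdc6, chr11:98907988-98908045, plus strand: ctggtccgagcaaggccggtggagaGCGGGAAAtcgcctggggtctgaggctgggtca
Mcm6, chr1:128359720-128359840, minus strand: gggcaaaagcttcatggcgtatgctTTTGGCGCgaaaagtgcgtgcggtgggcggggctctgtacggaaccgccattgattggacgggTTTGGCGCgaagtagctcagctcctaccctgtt
Cdc20, an activator of the anaphase-promoting complex, had 5497 counts in control and 948 in OB (-2.27), and Mcm6, a helicase subunit, had 5732 counts in control and 1144 in OB (-2.06) on the log2 scale.

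The transcripts of glycolysis were more often lower than higher, and 5 of them, Pkm, Ldha, Eno1, Pgk1 and Gapdh, were among the 10 largest losses of CPM. Of 20 tested genes 11 were lower and 1 was higher (60% called, against 17.7% of all tested genes). The median was -1.41 (-0.41 in the DNMT1-siRNA pair). Ldha, lactate dehydrogenase A, had 38767 counts in control and 6977 in OB (-2.21, 95% interval -2.25 to -2.18), Pgk1 had 39577 counts in control and 8915 in OB (-1.89), Eno1 had 42331 counts in control and 9962 in OB (-1.82), and Pkm, pyruvate kinase, had 66869 counts in control and 20790 in OB (-1.42). Gapdh, often used to normalise other genes, fell from 41949 to 12587 counts (-1.47, 95% interval -1.50 to -1.45). Pfkl (-1.93) and Tpi1 (-1.71) fell too. Several of these genes have many processed copies, with 72.2% of the 50-base words of Eno1, 67.4% of Pgk1, 34.7% of Pkm and 26.9% of Gapdh found in another gene. The Gapdh-like pseudogene Gm13394 fell alongside (-1.53), so the split of reads among copies is uncertain. Pfkfb3, the kinase that makes the activator of phosphofructokinase, went the other way with 301 counts in control and 719 in OB (1.51). The glucose transporter Slc2a1 and the hexokinases Hk1 and Hk2 were not called. Beside Gm13394, which was called, the other genes among the 10 largest losses of CPM were Fn1, Hsp90ab1 (-0.88), Eef1a1 (-0.21) and the pseudogene Rps2-ps10 (-0.68). These 4 were not called, and 95.7% of the 50-base words of Rps2-ps10 occur in another gene. The 10 together lost 12580 CPM.

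Other genes that respond to hypoxia-inducible factors fell in 9 of 22 and rose in 2 (50% called, against 17.7% of all tested genes). Ak4, a mitochondrial adenylate kinase, was the lowest of all called genes, with 1202 counts in control and 26 in OB (-5.18, 95% interval -5.89 to -4.71). Ankrd37 (-1.90), Pdk1 (-1.71) and Fam162a (-1.67) fell, whereas Adm, adrenomedullin (1.85), and Ndrg1 (1.12) rose. Vegfa was not called (-0.74). The genes of oxidative phosphorylation stayed near their control level, with none of 85 nuclear genes called (median -0.14) and none of the 13 encoded by mitochondrial DNA (median 0.09).

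Of 44 genes of ribosome biogenesis 8 were lower and 43 had a log2 fold change under 0, with a median of -0.80 and 18.2% called, near the 17.7% of all tested genes. The leading ones were Polr3g (-1.61), a subunit of RNA polymerase III, and Nop56 with 5054 counts in control and 1403 in OB (-1.59). None of 93 cytosolic ribosomal protein genes was called (median -0.38). Of 20 tRNA synthetase genes 5 were lower (25% called, median -0.71), and of 31 genes of amino acid supply and stress driven by ATF4 11 were lower and 1 was higher (38.7% called, median -0.87). Mthfd1l, of mitochondrial one-carbon metabolism, had 2892 counts in control and 600 in OB (-2.0), and Trib3 (-1.85) and Chac1 (-1.76) fell, while Slc7a3, a cationic amino acid transporter, rose from 23 to 57 counts (1.49). None of 20 endoplasmic reticulum chaperones was called (median -0.31). Among cytosolic chaperones the small heat shock proteins Cryab (354 counts in control and 1726 in OB, 2.54) and Hspb1 (2.46) rose, and Hsp90aa1 (-1.19), Hspd1 (-1.15) and Dnajb1 (-1.13) fell. Lysosomal genes leaned the other way, with 8 of 41 higher, none lower and 39 above 0 (median 0.70, 19.5% called). Ctsf, cathepsin F, had 59 counts in control and 316 in OB (2.64).

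No interferon ligand gene passed the expression filter. Of 45 effector genes of the interferon response 8 were below the filter. Of the 37 tested 28 were higher and none was lower (75.7% called, against 17.7% of all tested genes, median 1.94, 1.09 in the DNMT1-siRNA pair). Of 17 interferon-inducible GTPase genes 5 were below the filter, and 9 of the 12 tested were higher (median 1.93). Of 25 tested sensor and signalling genes 9 were higher and 2 were lower (44% called). Of the 7 ligand genes Ifnb1, interferon beta, had 1 and 2 counts, and Ifne had 0 and 4. Oas2, a 2-5A synthetase, had 1 count in control and 123 in OB, a ratio of 148 (95% interval 26 to 5874). Ddx60, a helicase of the antiviral response, had 4 counts in control and 153 in OB (4.92, 95% interval 4.13 to 7.41), Ifit1 had 74 counts in control and 903 in OB (3.83, 95% interval 3.53 to 4.23), and Isg15, a ubiquitin-like modifier, had 40 counts in control and 255 in OB (2.87). Ifi44 (4.11), Oasl2 (4.11) and Mx2 (3.55) rose as well. Iigp1 had 6 counts in control and 220 in OB (5.03) and Gbp3 had 37 counts in control and 369 in OB (3.51). Of the signalling genes Irf7 had 61 counts in control and 310 in OB (2.57) and Usp18, a negative regulator, 25 counts in control and 184 in OB (3.04), while Mb21d1, the DNA sensor cGAS (-1.62), and Socs1 (-1.02) fell. Ifit2 was the effector below 0 (-0.59, not called). The counts of several of these genes were low in control, and the filter averages all 4 libraries. Such genes can pass it through the induced libraries. Some genes have near copies: 57.1% of the 50-base words of Oas1a and 51.2% of those of Ifit3 occur in another gene.

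The interferon-stimulated response element, read as GAAANNGAAA on both strands, occurred in 14 of 29 effector promoters (48.3%) and 8 of 9 GTPase promoters (88.9%), against 66 of 949 promoters of higher genes (6.95%) and 3.99% of all promoters in the table. The stretches that hold it in 5 effector genes that rose are shown, with the matches in capitals. Where a match runs into the next one the capitals join, and a match on the other strand appears as its reverse complement.
Ifit1, chr19:34640760-34640838, plus strand: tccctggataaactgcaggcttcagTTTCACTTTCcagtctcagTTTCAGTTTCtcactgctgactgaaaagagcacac
Isg15, chr4:156200850-156200921, minus strand: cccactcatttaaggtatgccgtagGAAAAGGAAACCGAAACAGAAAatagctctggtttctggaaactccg
Oas1a, chr5:120907526-120907570, minus strand: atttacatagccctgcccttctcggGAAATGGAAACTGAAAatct
Bst2, chr8:71537562-71537627, minus strand: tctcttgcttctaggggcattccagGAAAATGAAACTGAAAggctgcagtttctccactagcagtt
Ddx60, chr8:61928009-61928086, plus strand: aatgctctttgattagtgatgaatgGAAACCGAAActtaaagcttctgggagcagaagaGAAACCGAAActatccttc
Bst2, tetherin, which holds budding virus at the cell surface, had 314 counts in control and 1646 in OB (2.64, 95% interval 2.48 to 2.83) and Oas1a had 5 counts in control and 59 in OB (3.35).

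Of 21 tested genes of the class I pathway 7 were higher and none was lower (33.3% called, against 17.7% of all tested genes). The higher genes included the immunoproteasome subunits Psmb8 (9 counts in control and 59 in OB, 2.71) and Psmb9 (2.45). The peptide transporter Tap2 (2.00) and the nonclassical molecule H2-T23 (283 counts in control and 1464 in OB, 2.62) were higher too. Of 24 complement components matched by symbol, 14 were below the filter, and of the 10 tested 7 were higher and none was lower (70% called). Their median log2 fold change was 2.56, against 0.92 without the filter and 1.83 at a filter of 5 CPM. C3 (chr17:57203970-57228136, minus strand), the hub of the cascade, had 7 counts in control and 1783 in OB, a log2 fold change of 7.87 (95% interval 7.21 to 9.57). The C1 proteases C1s1 (155 counts in control and 1846 in OB, 3.82) and C1ra (394 counts in control and 1959 in OB, 2.57) rose. They share 24.1% (C1s1) and 51.0% (C1ra) of their 50-base words with another gene. Among regulators, Clu, clusterin, had 62 counts in control and 1110 in OB (4.38), Serping1, the C1 inhibitor, rose by 3.28, and Cd55 fell by 1.83 on the log2 scale. The acute phase proteins Hp, haptoglobin, with 15 counts in control and 2388 in OB (7.39, 95% interval 6.85 to 8.42), and Lbp, which binds lipopolysaccharide, with 26 counts in control and 1504 in OB (6.0), were among the 20 highest genes.

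Of 8 tested chemokines 2 were lower and none was higher (25% called, against 17.7% of all tested genes). Among 18 interleukins and related genes 4 were higher and 4 were lower (44.4% called). Ptgs2, cyclooxygenase 2, had 3512 counts in control and 507 in OB (-2.53, 95% interval -2.67 to -2.40). Ccl2 had 548 counts in control and 123 in OB (-1.88) against 0.69 in the DNMT1-siRNA pair, and Lif (-1.70) and Tslp (-1.51) fell. Tnfrsf11b, osteoprotegerin, the decoy receptor that limits osteoclast formation, fell from 6154 to 1871 counts (-1.45). Genes with symbols of interleukin receptors were higher in 12 of 23 rows and lower in 2, Il1rl1 and Il18rap (60.9% called). The higher rows include near copies of Il11ra2. They also include Il1rn, which is no receptor but the secreted antagonist of the interleukin 1 receptor. Il1rn had 3175 counts in control and 20450 in OB (2.95, 95% interval 2.90 to 3.00).

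Signalling pathways were described by role. In the WNT pathway 9 of 18 listed inhibitors were below the filter. Of the 9 tested 6 were higher and 1 was lower (77.8% called, against 17.7% of all tested genes). Their median was 1.52, against 0.79 without the filter and 0.97 at a filter of 5 CPM. Among 16 receptors 3 were higher and 1 was lower (25% called). Sfrp2, a decoy that binds WNT ligands, had 112 counts in control and 546 in OB (2.53) and a log2 fold change of -0.13 in the DNMT1-siRNA pair, and Sfrp1 (1.58), Dkk2 (1.52), Notum (1.31), Nkd1 (2.02) and Nkd2 (1.82) rose, while Apcdd1 fell (-1.67). Lgr6, a receptor of R-spondins, had 219 counts in control and 5 in OB (-4.77, 95% interval -6.83 to -3.95). The coreceptor Lrp5, whose loss causes low bone mass, had 1167 counts in control and 3006 in OB (1.63), and Fzd9 (2.22) and Fzd4 (1.34) rose. Wnt5b was the ligand called (1.97). Of 9 target genes (33.3% called) Lef1 and Myc (1211 counts in control and 467 in OB, -1.11) fell and Nkd1 rose. Axin2 was below the filter at 7 and 29 counts.

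In BMP and TGF-beta signalling 1 of 9 tested ligands was lower and none was higher (11.1% called), of 18 receptors and SMADs 3 were higher and 1 was lower (22.2%), and of 14 antagonists 4 were higher and 1 was lower (35.7%), against 17.7% of all tested genes. Grem1, the BMP antagonist gremlin, had 10771 counts in control and 1859 in OB (-2.27, 95% interval -2.34 to -2.20). Fst, follistatin, which binds activins, had 374 counts in control and 1878 in OB (2.58, 95% interval 2.43 to 2.75). Fstl1 (1.04) and Bambi (1.03) rose slightly past the threshold. Inhbb, an activin subunit, fell by 2.16 and the inhibitory Smad7 by 1.33 on the log2 scale, and Tgfbr2 (1.07) and Acvr1b (1.11) rose. Of 12 target genes 3 were lower, Id4 (-1.62) and Skil (-1.04) among them, and Tgfbi was higher. Skil lay near the threshold and lost its call under upper quartile scaling (-0.99).

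In FGF signalling, of 9 tested ligands and receptors 4 were higher and none was lower (44.4% called), and of 16 feedback and ERK-responsive genes 11 were lower and none was higher (68.8%), against 17.7% of all tested genes (medians 0.94 and -1.05). Fgfr2 had 205 counts in control and 1560 in OB (3.18, 95% interval 2.98 to 3.41), and Fgf2 (1.93) and Fgf10 (1.46) rose. Egr1, an immediate early zinc finger factor, had 5179 counts in control and 473 in OB (-3.19, 95% interval -3.33 to -3.05), Fosl1 had 1443 counts in control and 180 in OB (-2.73), and Dusp4, an ERK phosphatase, had 671 counts in control and 99 in OB (-2.48). Etv4 (-2.18) and Dusp6 (-1.05) were lower too. In the overlapping list of AP-1 and immediate early genes 11 of 21 were lower, among them Egr3 (-2.95) and Fos (-1.94), and Fosb rose from 25 to 48 counts (1.14).

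Of 15 tested members of the insulin-like growth factor system 5 were higher, none was lower and 10 were not called (33.3% called, against 17.7% of all tested genes). Igfbp5, the most abundant IGF binding protein of bone, had 29 counts in control and 1409 in OB (5.76, 95% interval 5.34 to 6.45), Igfbp4 had 381 counts in control and 2044 in OB (2.68), and Igf1 itself had 184 counts in control and 1169 in OB (2.92). The pappalysins Pappa2 (1.67) and Pappa (1.04), which cleave these binding proteins, rose. In the Hedgehog pathway 4 of 11 were higher (36.4%), led by the coreceptor Boc (794 counts in control and 3112 in OB, 2.23), while the target Gli1 was not called (-0.74). In the Notch pathway Notch3 (1566 counts in control and 4561 in OB, 1.80), Notch1 (1.48) and the target Hey2 (1.69) rose, and the ligand Jag2 (-2.23), the noncanonical ligand Dlk1 (116 counts in control and 9 in OB, -3.19), which inhibits fat cell formation, and the effector Rbpj (-1.19) fell. Of 20 YAP/TAZ target genes 2 were higher and 3 were lower, with Cyr61 at 5167 counts in control and 1659 in OB (-1.38), or 25% called.

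In the retinoid list 5 of 14 members were higher and 1 was lower (42.9% called, against 17.7% of all tested genes). Aldh1a1 (chr19:20492715-20643462, plus strand), a retinaldehyde dehydrogenase, had 16 counts in control and 3392 in OB (7.81, 95% interval 7.29 to 8.80), and its neighbour Aldh1a7 had 22 counts in control and 8536 in OB (8.73). Dhrs3, which turns retinal back into retinol, had 3 counts in control and 151 in OB, a ratio of 60.4 (95% interval 20.3 to 296), whereas Rdh10, which makes retinal, fell from 1265 to 170 counts (-2.62). In detoxification 12 of 29 members were higher and 3 were lower (51.7%). Fmo1, a flavin monooxygenase, had 34 counts in control and 1567 in OB (5.70) and Adh1 had 5 counts in control and 92 in OB (3.98). Ahr, the aryl hydrocarbon receptor, fell from 1467 to 191 counts (-2.67), as did Aldh3a1 (651 counts in control and 110 in OB, -2.28), with 0.27 in the DNMT1-siRNA pair. Gsta1 fell too (-2.37), but shares 90.4% of its 50-base words with other genes. Of 26 glutathione and redox genes 2 were higher and 6 were lower (30.8%), including the cystine transporter Slc7a11 (467 counts in control and 97 in OB, -1.99) and Nqo1 (-1.11), with Gclc (1.18) and Sod3 (1.04) higher. In cholesterol synthesis and uptake no gene was lower and the median was 0.01, against 0.86 in the DNMT1-siRNA pair. The genes called were Abca1, the sterol exporter, with 237 counts in control and 882 in OB (2.15), and Mylip, which degrades the LDL receptor (1.66). Of 34 tested genes of fatty acid synthesis and oxidation 1 was called, Acacb (1.52).

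Gene families were also chosen by symbol, and their counts stand against 10.6% higher and 7.1% lower, or 17.7% called, over all tested genes. Protocadherins, neural-type adhesion molecules encoded largely in clusters, were higher in 20 of 30 tested members and lower in 1, with a median of 1.15; genes of the gamma cluster share exons, so their counts are not independent. The member that fell, Pcdh19, lies outside the clusters and had 6074 counts in control and 2217 in OB (-1.19). Semaphorins, guidance ligands, were higher in 7 of 14 and lower in 1, with Sema3d at 110 counts in control and 601 in OB (2.69) and Sema7a lower (-1.15). Of 22 integrins 7 were higher and 2 were lower (40.9% called), with Itga8 (3.33) and Itga1 (2.99) higher and Itgb7 (-2.56) and Itga6 (-2.0) lower. Of 197 solute carriers 35 were higher and 13 were lower (24.4% called). The bicarbonate transporter Slc4a4 rose by 2.55 and the iron exporter Slc40a1 fell by 2.10 on the log2 scale. Of 26 nuclear receptors 5 were higher and 3 were lower (30.8%), and Vdr, the vitamin D receptor, had 1323 counts in control and 3006 in OB (1.44). Regulators of G-protein signalling included Rgs2 (2.40), which rose, and Rgs4 (1398 counts in control and 182 in OB, -2.67), which fell. None of 9 HOX genes and none of 13 actin and actin-related genes was called, and 12 of 336 zinc finger genes named Zfp were higher and 5 were lower (5.06%).

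Clock, imprinted and p53-responsive genes were each called in both directions, in 29.4%, 28.0% and 20.7% of the tested members against 17.7% of all tested genes. Per1, Per2 (1.56) and Rora (1.26) rose, and the nuclear receptors Nr1d1 (-1.36) and Nr1d2 (2082 counts in control and 541 in OB, -1.68), which repress clock genes, fell. Of 25 imprinted genes 5 were higher, among them Mest (864 counts in control and 2783 in OB, 1.95) and Plagl1 (1.92), and 2 were lower, Dlk1 and Peg10 (544 counts in control and 95 in OB, -2.23). H19 had 2 counts in control and 17 in OB, a ratio of 10.2 (95% interval 2.42 to 91.0). Of 29 p53 target genes 5 were higher and 1 was lower, with Trp53inp1 at 2341 counts in control and 8119 in OB (2.06).

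The 20 highest protein-coding genes held further members outside the lists. Tspan18, a tetraspanin, had 1 count in control and 243 in OB, a ratio of 291 (95% interval 51.8 to 11560), Ehf, an ETS factor of epithelia, had 1 and 206, a ratio of 247 (95% interval 43.9 to 9806), and Ace, the angiotensin-converting enzyme, had 1 and 163, a ratio of 196 (95% interval 34.6 to 7769). Ifi207, an interferon-inducible member of the p200 family, had 26 counts in control and 1619 in OB (6.11), Ctla2a had 28 counts in control and 1555 in OB (5.95), and Acss3, a mitochondrial acyl-CoA synthetase, had 8 counts in control and 462 in OB (5.78). Part of Acss3 (33.9%) is overlapped by Ppfia2 on the opposite strand. The same holds for Gdpd2 (17.3%, by Gm14866) and for Arhgap22, described below (36.9%, by Gm15512). Whether counting used strand is not given in the sources used here.

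The 20 lowest protein-coding genes included the proliferins Prl2c2 (4330 counts in control and 158 in OB, -4.50) and Prl2c3 (1790 counts in control and 55 in OB, -4.72), growth-associated prolactin-like proteins. Their log2 fold changes in the DNMT1-siRNA pair were -1.05 and -1.31, and 79.0% of the 50-base words of Prl2c3, and a larger share of those of Prl2c2, occur in another gene. Ngef, a guanine nucleotide exchange factor, had 233 counts in control and 6 in OB (-4.66), Arhgap22 had 814 counts in control and 55 in OB (-3.58), and Anxa8, an annexin, had 1284 counts in control and 97 in OB (-3.44). Cbln1 and Sprr1a were left with 3 counts each in OB, from 124 and 122, ratios of 0.0290 (95% interval 0.00590 to 0.0868) and 0.0295 (95% interval 0.00600 to 0.0882), and Dach2 with 3 from 59, a ratio of 0.0610 (95% interval 0.0122 to 0.187). Lrrtm2 (-3.96), Asgr1 (-3.40), Tprg (-3.39), Nanos1 (-3.27), Krt80 (-3.24) and the unnamed gene model Gm28710 (-4.63) made up the rest beside Ak4, Lgr6, Il1rl1, Col8a1, E2f2 and Dlk1.

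To see which of these differences were also present when the induction followed the DNMT1 siRNA, the values of both pairs were set side by side. The pairs share no library, but they do share the cell line, the medium and the study, and they differ by the siRNA. Of the 1404 genes higher in OB than control 97.0% had a positive log2 fold change in the DNMT1-siRNA pair and 55.1% were called higher there, and of the 940 lower genes 96.3% had a negative one and 31.1% were called lower. Over all tested genes 50.1% were positive. These genes were chosen by their values in the control-siRNA pair, so the values of single ones in the 2 pairs are given side by side with no comparison of size. Among the glucocorticoid targets, the log2 fold changes in the control-siRNA and the DNMT1-siRNA pair were 4.0 and 3.95 for Tsc22d3, 9.45 and 7.71 for Fam107a, 7.33 and 6.27 for Sult1a1, and -3.96 and -2.22 for Il1rl1. Zbtb16 had 0 counts in control and 1780 in OB, and 0 in siDNMT1 and 1688 in the library labelled siDNMT1_OB, so no exact fold is given. The medians of mitosis (-2.25 and -1.11), DNA replication (-1.89 and -0.74) and glycolysis (-1.41 and -0.41) were nearer 0 in the DNMT1-siRNA pair, and cholesterol synthesis stood higher there. In the uninduced cells Ldha had 38767 counts in control and 12197 in siDNMT1, against 6977 in OB and 7292 in the library labelled siDNMT1_OB. Mki67 had 13598 counts in control and 1909 in OB, and 11757 in siDNMT1 and 5034 in the library labelled siDNMT1_OB. Whether the 2 pairs differ beyond the spread between dishes of cells was not tested, since each group has 1 library.

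**Figure D5:**
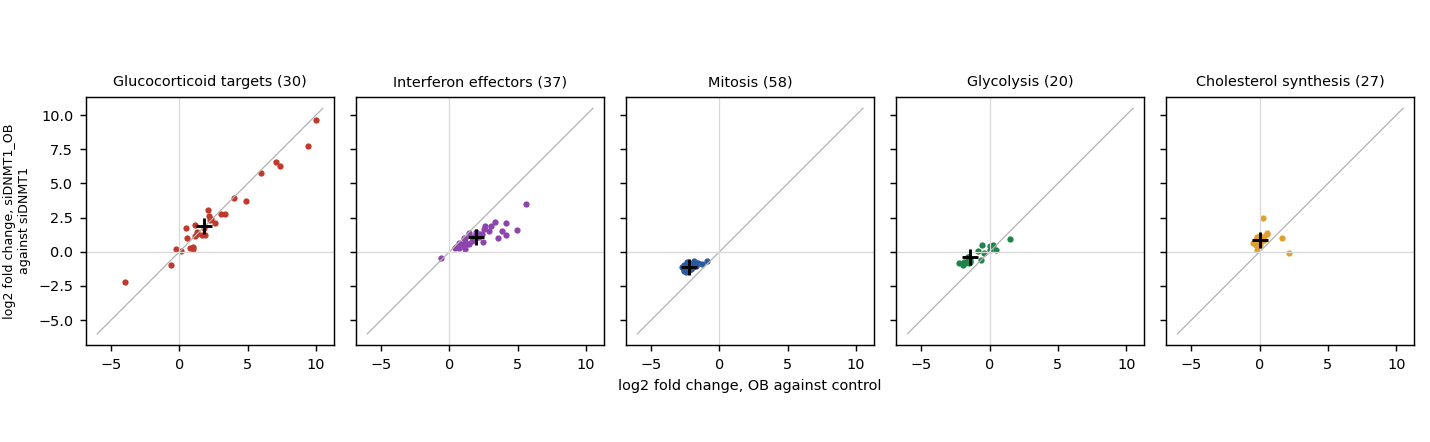
Log2 fold change of the control-siRNA pair (horizontal axis) against that of the DNMT1-siRNA pair (vertical axis) for 5 gene lists, 1 point per gene, with the line of equal values and a cross at the medians. The medians of the glucocorticoid targets lie on the line (1.84 and 1.86) with some genes below it, whereas mitosis genes lie above it (-2.25 and -1.11) and cholesterol genes spread upwards (0.01 and 0.86).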

How the data were processed

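Poly(A) RNA of 4 C3H10T1/2 libraries was analysed from raw gene counts, which the authors deposited as whole numbers without normalization. Per the submitters' processing notes and the study's methods, paired-end reads were trimmed with Trimmomatic, aligned with HISAT2 to mm10 and assigned to genes with featureCounts. Versions of these tools, strand use and the treatment of multi-mapping reads are not given in the sources used here. Gene positions matched GENCODE M21 (GRCm38) for 98.3% of 54495 shared genes.

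The deposited counts were scaled by TMM with edgeR 4.0.16 under R 4.3.3, the 13233 genes averaging 1 CPM or more across the 4 libraries were kept, and log2 fold changes were taken from CPM with a prior count of 2. The call needed a log2 fold change of at least 1 in size and an adjusted p under 0.05 in the exact binomial test of reads. Intervals are exact (Clopper-Pearson) 95% intervals. Molecular identifiers were not used, so that intervals and the floor of 3 counts cover counting error only. Folds against 1 to 3 counts are given as ratios with their intervals.

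Lists, families and members were chosen with earlier results of these data known and were described by counts and medians, not tested. Named genes are Dnmt1 and lineage or hormone markers, the 20 highest and lowest protein-coding calls, the 10 largest rises and falls in CPM, up to 5 members furthest from 0 per list or family, and members called against their list; other named genes (such as Sgk1, Dusp1, Gli1 and Vegfa) were chosen after their values were seen. Sequence sharing was the share of a gene's 50-base words found in another gene. Alternatives were other scalings, filters, prior counts, an assumed spread between samples, removal of genes overlapping another strand, and additive fits over all 4 libraries in edgeR and DESeq2 1.42.0. Some genes are not reported here.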

Additional observations from a re-analysis of the deposited data

Results flagged for a closer look

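Adcyap1r1, which encodes the receptor of the neuropeptide PACAP, stood apart because its calls went in opposite directions after induction with control siRNA and with DNMT1 siRNA. It had 169 counts in control, 56 in OB, 48 in siDNMT1 and 115 in the library labelled siDNMT1_OB. On the log2 scale OB differed from control by -1.30 (95% interval -1.79 to -0.89), and the DNMT1-siRNA pair by 1.16 (0.70 to 1.72). It was 1 gene of the 13233 tested. With 1 library in each group the difference between the pairs was not tested.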

How the results depend on the processing

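With 1 library per group no value here has a replicate check, so spread between dishes of cells limits every call. The 1404 higher and 940 lower genes stayed within 1.5 times of those counts under other scalings, a prior count of 0.5, the size threshold alone, an assumed coefficient of variation of 0.2 between samples and removal of genes that overlap another strand. The higher genes numbered 2244 without an expression filter and 825 at a filter of 5 CPM. With an assumed coefficient of variation of 0.4 the counts were 146 higher and 19 lower. Additive fits over all 4 libraries called 549 lower genes in edgeR, and 859 higher and 537 lower genes in DESeq2, and the cause was not tested. Scaling moved the median of all genes from 0.004 to 0.057 and the share of calls that were higher from 59.7% to 63.6%.

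The 14 list medians of at least 1 in size had 98 values under other settings. None changed sign, and 13 of these 98 values moved by more than the counting error of the list members. Without a filter the moved values were -1.14 for glycolysis, 0.92 for complement components, 0.37 for complement regulators, 0.79 for WNT inhibitors and 1.47 for small leucine-rich proteoglycans. At 5 CPM they were 1.67 for glucocorticoid targets, 1.41 for interferon-inducible GTPases, 1.83 for complement components, 0.97 for WNT inhibitors and 2.06 for small leucine-rich proteoglycans. Without overlapping genes they were 2.36 for the GTPases, -1.23 for immediate early genes and 0.58 for small leucine-rich proteoglycans. Each of these settings changes which members are counted. Of 364 single genes followed 5 crossed the size threshold under another setting, namely Ror1, Serpine2, Skil, Tars and Zfp521. Replicates could not be paired or left out, because each group holds 1 library and the labels carry no replicate numbers. In the additive edgeR fit over all 4 libraries the common biological coefficient of variation was 0.138. That spread includes any difference between the library pairs.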

Other observations

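The share of called genes differed between transcript classes. Of 11688 protein-coding genes 17.1% were called, with 1188 higher and 810 lower, against 26.5% of 264 lincRNAs (48 higher, 22 lower), 27% of 230 antisense transcripts (48 higher, 14 lower) and 26.3% of 171 processed transcripts (38 higher, 7 lower). The median log2 fold changes of these 3 noncoding classes were 0.33, 0.46 and 0.40. In the annotation class TEC 28.1% of 196 genes were called (44 higher, 11 lower, median 0.39). Of 40 bidirectional promoter lncRNAs 17.5% were called (7 higher, none lower). Processed pseudogenes went the other way, with 16.8% called (10 of 446 higher, 65 lower) and a median of -0.37. Unprocessed pseudogenes (6 of 57), transcribed processed pseudogenes (14.3% of 42), sense intronic transcripts (11.1% of 27) and transcribed unprocessed pseudogenes (16.7% of 24) were the other classes with shares below that of protein-coding genes, and no difference between classes was tested. Many of the noncoding genes have few counts and some overlap a coding gene on the other strand, and the part of either in these shares was not tested.

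The share of called genes varied with abundance. In the lowest quartile of mean CPM (median 2.9 CPM) 22.4% of genes were higher and 8.64% were lower, and in the highest quartile (median 123.0 CPM) 5.86% were higher and 5.93% were lower. Over quartiles of exonic length the share of higher genes lay between 9.65% and 11.3% and the median log2 fold change between -0.02 and 0.03.

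Over all tested genes 10.6% were higher and 7.1% were lower. Of 34 G-protein coupled receptors with symbols that start in Gpr or Adgr 8 were higher and 1 was lower (26.5% called). Adgrg2, an adhesion receptor of fluid-transporting epithelia, had 1186 counts in control and 8155 in OB, a log2 fold change of 3.04, and the zinc-sensing receptor Gpr39 had 69 and 572 counts, a log2 fold change of 3.27. Cytochrome P450 genes were higher in 5 of 15 and lower in none (33.3%). They included Cyp2d22, with 1 count in control and 46 in OB, Cyp2j9 (2.66) and Cyp4v3 (2.60). Calcium channel genes were higher in 5 of 11 and lower in none (45.5%). Of 14 KLF factors 5 were higher and 2 were lower (50%), and of 24 histone genes 5 were higher and 5 were lower (41.7%).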
